A study of Mus musculus with 12 samples.

Results

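The histone genes read in this experiment were 50 genes measured by 64 probes, of 17178 genes with a symbol on the array. They were chosen by symbol: a probe's accession was matched to its mouse gene, and the gene was kept if its current or older symbol is that of an H1, H2A, H2B, H3 or H4 histone. No measured value entered this choice, but the subject was picked with earlier results of these arrays known, so the tests below describe these arrays and are not independent support. Of the 50 genes, 29 were replication-dependent, 9 were somatic variants, 11 were germline genes and 1 was the pseudogene Macroh2a3. Each array measured one culture of the mouse fibroblast line NIH3T3, which is established and of embryonic origin, after 18 h with 2 µM PP242, with 50 nM rapamycin or with the solvent DMSO, in 4 independent experiments per group according to the series design. No genetic change distinguished the groups. PP242 competes with ATP at the mTOR kinase, and rapamycin acts with FKBP12 mainly on mTOR complex 1.

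Histones package DNA into nucleosomes, with a core of H2A, H2B, H3 and H4 and a linker H1 outside it. Replication-dependent histone genes lie in clusters and are transcribed mostly in S phase, when new DNA has to be packaged. Their mRNAs normally end in a stem-loop bound by SLBP and not in a poly(A) tail, and they are degraded when DNA synthesis stops. Some of these genes can also give polyadenylated mRNA. Variant histones such as H3.3 and H2A.Z come from genes outside the large clusters, with ordinary polyadenylated mRNAs, and most are made throughout the cell cycle. The H2A.X gene H2ax can give both kinds of mRNA.

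The values below are log2 of the processed signal minus the array's 75th percentile, so they serve to compare arrays for one probe and not genes with each other. On 8 arrays the 75th percentile was 262 to 422 times the 25th. On PP242 arrays 1 and 4, rapamycin array 3 and DMSO array 2 it was 7.15 to 71.5 times, the dim probes being raised, and 76.2% to 97.8% of probes were well above background there, against 55.7% to 60.4% on the other arrays. The clear set of 8 arrays held 2 PP242, 3 rapamycin and 3 DMSO arrays. All tests were run on the clear arrays and, beside them, on all 12, and a gene is said to rise or fall where its adjusted p was under 0.05. Of the 50 histone genes, 41 passed the filter on dim probes on the clear arrays and 45 did on all 12. The 6 fibroblast markers looked for (Col1a1, Col1a2, Vim, Thy1, Pdgfrb and Fn1) were well above background on all 8 clear arrays, while Epcam, Krt18, Cdh1, Pecam1, Cdh5, Kdr and Myog were so on none. Csf1r was well above background on 8 of these arrays, Des on 5, Krt8 on 4, Ckm on 3, Ptprc on 2 and Adgre1 on 1. With PP242 against DMSO on the clear arrays Pdgfrb rose, with 0.82 (adjusted p = 0.0147), and Csf1r fell, with -0.37 (adjusted p = 0.0307); what part cells of another type had in the histone values was not tested.

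Many histone genes differ by only a few bases, so one probe may read several copies. On the array, 21 of the 29 replication-dependent genes lie on chromosome 13, 5 on chromosome 3, 2 on chromosome 11 and 1 on chromosome 6. The bases before the transcription start are shown for 6 genes on which the comparisons turn. These are H1f5 and H1f2, linker histone genes that moved in opposite directions with PP242; H2ac13 and H4c6, a core H2A gene and the H4 gene with the highest signal; and H2az1 and H3f3b, variant genes of which the first fell and the second did not pass the test. Each stretch covers the 150 bases before the RefSeq start on the gene's strand (GRCm38.p6), and the capitals mark short motifs on either strand. These are the CCAAT box (spelled CCAAT), a binding site of the factor NF-Y; the TATA box, searched as TATAAA; the H1 box of linker histone genes, AAACACA; and the octamer bound by Oct-1, which reads ATTTGCAT. They come from chr13:21780626-21780775, minus strand (H1f5), chr13:23738657-23738806, plus strand (H1f2), chr13:21716262-21716411, plus strand (H2ac13), chr13:23551669-23551818, minus strand (H4c6), chr3:137864337-137864486, plus strand (H2az1) and chr11:116024505-116024654, minus strand (H3f3b).
H1f5: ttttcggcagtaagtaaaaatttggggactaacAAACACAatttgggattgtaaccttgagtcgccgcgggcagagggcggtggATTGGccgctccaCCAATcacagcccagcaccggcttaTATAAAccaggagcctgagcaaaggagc
H1f2: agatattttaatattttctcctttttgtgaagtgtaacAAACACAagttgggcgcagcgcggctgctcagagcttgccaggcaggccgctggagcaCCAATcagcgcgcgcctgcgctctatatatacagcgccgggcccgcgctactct
H2ac13: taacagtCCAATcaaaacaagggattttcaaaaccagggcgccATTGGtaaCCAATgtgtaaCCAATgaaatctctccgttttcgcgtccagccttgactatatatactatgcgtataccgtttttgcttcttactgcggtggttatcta
H4c6: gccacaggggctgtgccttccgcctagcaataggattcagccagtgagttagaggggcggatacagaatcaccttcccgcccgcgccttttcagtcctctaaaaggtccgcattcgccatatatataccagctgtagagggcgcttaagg
H2az1: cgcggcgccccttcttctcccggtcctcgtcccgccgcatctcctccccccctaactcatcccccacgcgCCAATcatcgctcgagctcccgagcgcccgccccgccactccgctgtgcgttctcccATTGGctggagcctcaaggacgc
H3f3b: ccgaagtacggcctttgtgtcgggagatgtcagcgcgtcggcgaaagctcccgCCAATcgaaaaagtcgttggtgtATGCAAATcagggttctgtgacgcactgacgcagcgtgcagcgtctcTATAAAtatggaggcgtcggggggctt

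H1f5 and H1f2 both carry the H1 box and the CCAAT box. Of the 2 stretches only that of H1f5 has the letters TATAAA, while that of H1f2 has tatatata, which the search did not count. In the H2ac13 stretch the CCAAT box occurs 4 times over both strands, and the H4c6 stretch holds none of the 4 motifs as spelled. The H2ac13 and H4c6 stretches also have tatatata. TATAAA does occur within the 250 bases before the H4c6 start. The window of 250 bases before the start was available for 44 of the 50 genes, 25 of them replication-dependent. These are not the same 25 genes as those tested below. They include H2ac6, H2bc6, H2bc23 and H2bu2, which were not tested on the clear arrays, and lack H2bc4, H2bc21, H3c1 and H4c14. Searched on both strands, each motif by itself, the CCAAT box was in 22 of the 25 with a window, against 34.2% of the windows of 27025 genes. The TATA box was in 13 of 25, against 12.9% of all windows. The octamer was in 8 of 25, against 1.59% of all windows, and those 8 were 5 of 9 H2A and 3 of 5 H2B genes. The H1 box was in 6 of 25, against 6.34% of all, with 4 of the 5 H1 genes among them. These are matches of letters, not measured sites.

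With PP242, 13 of the 25 replication-dependent genes tested on the clear arrays fell against DMSO, 3 rose and 9 did not pass. Of all 18579 genes tested, 14.3% fell and 13.9% rose. Each gene is read by its brightest probe. The genes that fell were 7 of 8 H2A genes, among them H2aw, whose second probe rose, 5 of 5 H4 genes and the linker gene H1f5, and those that rose were the H2B genes H2bc21 and H2bc4 and the linker gene H1f2. The median log2 change of the 25 genes was -0.89, against -0.01 over all genes tested. On all 12 arrays the median of the 26 genes tested was -0.82, while that of all genes was 0.34. There 0 of the 26 fell and 1 rose (limma, all p adjusted over all genes), where 0.084% of all genes fell and 0.416% rose. Of the 26, 10 had an unadjusted p under 0.05, as had 2310 of all 23803 genes. The count that fell on the clear arrays was 7 without PP242 array 2, 5 without PP242 array 3, 8 without rapamycin array 1, and 7 without DMSO array 1 or without DMSO array 3. With slide as a block the count that fell was 5: H2ac13, H2ac15, H2ac20, H1f5 and the brighter probe of H2aw passed, while H2ac4, H2ac10, H2ac18 and all 5 H4 genes did not. Those 5 also fell, and H1f2, H2bc4 and H2bc21 rose, whichever single array of the 8 was left out. In bulk RNA, fewer cells that express a gene and less RNA per cell cannot be told apart.

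**Figure D1:**
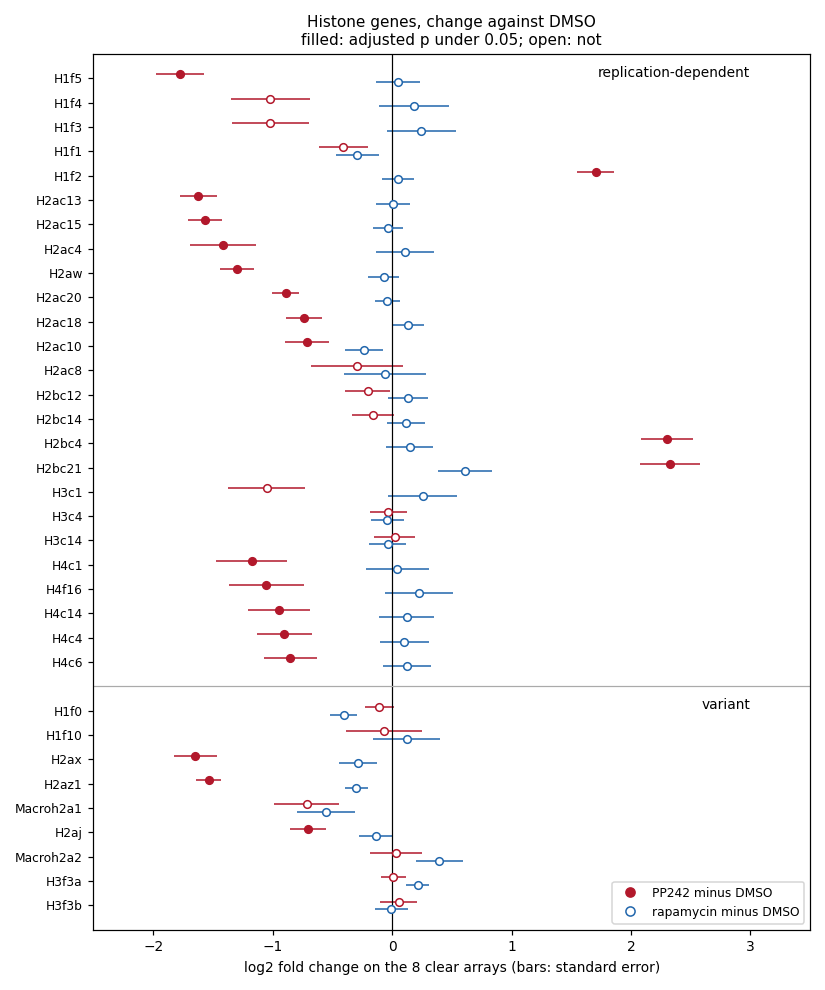
Log2 fold change against DMSO (horizontal axis) of the 25 replication-dependent and 9 variant histone genes tested on the 8 clear arrays, with the standard error as bars; red is PP242 and blue is rapamycin, filled where the adjusted p was under 0.05. The replication-dependent H2A and H4 genes lie left of 0 with PP242, H2bc4, H2bc21 and H1f2 lie beyond 1.6 on the right, and every rapamycin point is open.

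Among the linker histones, H1f5 fell most. H1f5 read 2.23, 2.47, 2.15 and 3.33 on PP242 arrays 1 to 4. Its rapamycin values were 3.97, 3.93, 2.27 and 4.49, and DMSO arrays read 4.22, 4.19, 4.01 and 4.02. The clear PP242 arrays and PP242 array 1 lay below every clear rapamycin and DMSO array; PP242 array 4 lay between, and rapamycin array 3 was down with the PP242 arrays. The change on the clear arrays was -1.77 ± 0.20 (SE) with adjusted p = 0.00169, 3.42-fold lower with PP242. H1f2 moved the other way. H1f2 read -0.47, -0.17, 0.0029 and -1.84 on PP242 arrays 1 to 4. The rapamycin arrays read -1.87, -1.81, -4.13 and -1.52, and DMSO arrays read -1.96, -2.21, -1.74 and -1.66. Both clear PP242 arrays were above all other groups' arrays, whereas PP242 array 4 read within the DMSO values. H1f2 rose, with a change of 1.70 ± 0.15 (SE) with adjusted p = 0.000722, 3.26-fold higher. H1f4 had a change of -1.02 ± 0.33 (SE) with adjusted p = 0.0626, H1f3 of -1.02 ± 0.32 (SE) with adjusted p = 0.0594 and H1f1 of -0.41 ± 0.20 (SE) with adjusted p = 0.191, and none of the 3 passed.

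H1f3 was read by a second probe that went the other way. The probe used above read -1.06, -0.89, -1.28 and -0.08 with PP242, -0.06, -0.18, -0.65 and 0.78 with rapamycin and 0.26, 0.39, -0.16 and -0.30 with DMSO. The dimmer probe read -4.41, -4.25, -4.24 and -5.96 with PP242, -8.54, -8.62, -5.30 and -8.14 with rapamycin and -8.45, -8.62, -8.17 and -8.22 with DMSO. It was well above background on both clear PP242 arrays and on 0 of the 6 other clear arrays, so only a bound can be given: at least 4.14-fold higher with PP242 than with DMSO and at least 4.83-fold higher than with rapamycin. The bound sets the PP242 mean against the lowest signal well above background on each array of the other group, or the probe's own signal where that is higher. Its mean measured signal on the clear arrays was -4.25 with PP242, -8.43 with rapamycin and -8.28 with DMSO. PP242 arrays 1 and 4 also read above every DMSO array on this probe, as did rapamycin array 3; these 3 are among the arrays with raised dim probes.

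Of the replication-dependent H2A genes tested, 6 of 8 fell, and a seventh, H2aw, fell on its brighter probe and rose on its dimmer one. H2ac10 had the highest signal of the H2A genes. H2ac10 read 6.98, 7.29, 6.87 and 7.26 on PP242 arrays 1 to 4. Values with rapamycin were 7.61, 7.74, 5.23 and 7.31, and DMSO arrays read 7.86, 7.80, 7.65 and 7.85. The clear PP242 arrays lay below the clear arrays of both other groups by a margin that was small next to rapamycin array 4. H2ac10 fell, with a change of -0.71 ± 0.18 (SE) with adjusted p = 0.0289, a call that was lost without PP242 array 3, without rapamycin array 1 and without any one of the clear DMSO arrays. A second H2ac10 probe fell, with a change of -1.49 ± 0.14 (SE) with adjusted p = 0.000847. H2ac13, with the largest fall of the H2A genes, read 2.60, 2.87, 2.80 and 3.95 with PP242, 4.27, 4.43, 1.99 and 4.69 with rapamycin and 4.56, 4.44, 4.26 and 4.55 with DMSO. The clear PP242 arrays lay below all clear rapamycin and DMSO arrays, with PP242 array 4 between; rapamycin array 3 was the lowest of all 12. H2ac13 was 3.08-fold lower, a change of -1.62 ± 0.16 (SE) with adjusted p = 0.000929.

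H2ac15 fell, with a change of -1.57 ± 0.14 (SE) with adjusted p = 0.000739, and H2ac4 with -1.42 ± 0.27 (SE) with adjusted p = 0.0108. H2ac20 and H2ac18 changed less, by -0.89 ± 0.11 (SE) with adjusted p = 0.00261 and -0.74 ± 0.15 (SE) with adjusted p = 0.0135. The call of H2ac4 was lost without PP242 array 3, and that of H2ac18 without PP242 array 2 and without PP242 array 3. H2ac8 was the H2A gene that did not pass, with a change of -0.29 ± 0.39 (SE) with adjusted p = 0.62. H2aw, an H2A gene outside the large clusters, gave a second pair of probes with opposite signs. Its brighter probe read 4.66, 4.96, 4.72 and 5.50 with PP242, 6.02, 5.93, 3.81 and 6.25 with rapamycin and 6.20, 5.86, 5.98 and 6.22 with DMSO. Its dimmer probe, well above background on all 12 arrays, read 1.68, 2.09, 2.12 and 0.77 with PP242, 0.60, 0.48, -1.02 and 0.12 with rapamycin and 0.45, 0.10, 0.44 and -0.09 with DMSO. On the clear arrays the first fell, with a change of -1.30 ± 0.14 (SE) with adjusted p = 0.00155, and the second rose by 1.84 ± 0.21 (SE) with adjusted p = 0.00182. The mean of the 2 probes changed by 0.27 and did not pass, so no direction can be given for the gene as a whole.

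**Figure D2:**
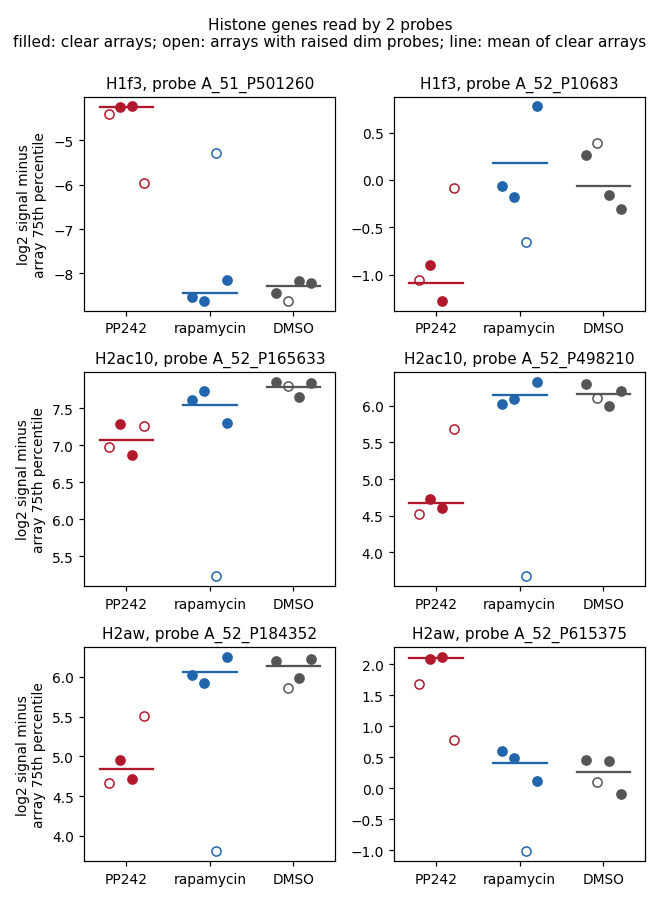
Log2 signal minus the array's 75th percentile (vertical axis) by group for both probes of H1f3, H2ac10 and H2aw; filled circles are clear arrays, open circles the 4 raised arrays, lines the means of the clear arrays. The 2 probes of H2ac10 both lie lower with PP242, while those of H1f3 and of H2aw lie on opposite sides of DMSO.

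The H2B genes were divided. H2bc21 encodes the H2B form known in mouse for its high level in olfactory neurons. H2bc21 read -0.97, -0.74, -0.77 and -1.44 on PP242 arrays 1 to 4. Rapamycin arrays 1 to 4 gave -2.65, -2.63, -2.24 and -2.14, and DMSO arrays read -3.28, -3.38, -3.33 and -2.64. All 4 PP242 arrays were above all 8 others. H2bc21 was 5.02-fold higher, a rise of 2.33 ± 0.25 (SE) with adjusted p = 0.00138, and it was the 1 replication-dependent gene that also passed on all 12 arrays, with 2.18 and adjusted p = 0.0158. The 12-array count of 1 was 0 without PP242 array 2, PP242 array 3, DMSO array 1 or DMSO array 3, and 17 without rapamycin array 3. H2bc4, another core H2B gene, rose about as far. H2bc4 read 0.37, 0.32, 0.38 and -0.39 on PP242 arrays 1 to 4. Its rapamycin values were -1.60, -1.62, 0.56 and -2.20, and DMSO arrays read -1.98, -1.71, -1.72 and -2.16. Every PP242 array lay above every DMSO array, and rapamycin array 3 was above all PP242 arrays, apart from the other rapamycin arrays. The rise of H2bc4 was 2.30 ± 0.22 (SE) with adjusted p = 0.000857, 4.94-fold; on all 12 arrays it was 2.06 with adjusted p = 0.129.

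The H2B gene with the highest signal, H2bc14, read 0.86, 1.29, 1.30 and 1.04 with PP242, 1.43, 1.40, -0.54 and 1.89 with rapamycin and 1.61, 1.68, 1.32 and 1.44 with DMSO. Its clear PP242 arrays were just below the lowest DMSO array, a change of -0.16 ± 0.17 (SE) with adjusted p = 0.541. H2bc12 changed by -0.20 ± 0.19 (SE) with adjusted p = 0.474, and neither gene passed. H2bc6, H2bc23 and H2bu2, as well as the H2A gene H2ac6, were well above background on 0 of the 8 clear arrays and were not tested there. Their signals were above background on 2 to 4 of the 12 arrays, and no level is given.

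Of the 3 H3 genes none passed. H3c14 had the highest signal of them. It read 5.61, 5.89, 5.80 and 5.91 on PP242 arrays. On rapamycin arrays 1, 2 and 4 it read 5.60, 5.73 and 6.04, with its spot on array 3 left out for an outlier mark, and on DMSO arrays 5.80, 5.67, 5.64 and 6.04. The groups overlapped throughout, with a change of 0.02 ± 0.17 (SE) with adjusted p = 0.944. H3c4 changed by -0.03 ± 0.16 (SE) with adjusted p = 0.906. H3c1 had a change of -1.05 ± 0.32 (SE) with adjusted p = 0.0524, with the clear PP242 arrays at -5.41 and -5.34 below the lowest DMSO array at -4.76, and did not pass.

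All 5 H4 genes fell. H4c6 had the highest signal. H4c6 read 5.10, 5.72, 5.43 and 6.13 on PP242 arrays 1 to 4. The rapamycin arrays read 6.41, 6.40, 4.29 and 6.84, and DMSO arrays read 6.72, 6.89, 6.43 and 6.12. The clear PP242 arrays were below the clear arrays of both other groups, but PP242 array 4 reached the lowest DMSO array, and rapamycin array 3 was the lowest of all. H4c6 fell, with a change of -0.85 ± 0.22 (SE) with adjusted p = 0.0322, 1.8-fold. H4c1 fell, with a change of -1.17 ± 0.30 (SE) with adjusted p = 0.0278, H4f16 -1.05 ± 0.32 (SE) with adjusted p = 0.0492, H4c14 -0.95 ± 0.26 (SE) with adjusted p = 0.0357 and H4c4 -0.90 ± 0.23 (SE) with adjusted p = 0.0302. In each of the 5, PP242 array 3 was the lowest clear array, then PP242 array 2, then DMSO array 4. H4 genes encode the same protein with very similar coding sequence, and their probes may not be separate readings. None of the 5 calls held in every fit with one array left out: H4c1 kept its call in 4 of 8 such fits, H4c4, H4c6 and H4c14 in 3, and H4f16 in 2.

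**Figure D3:**
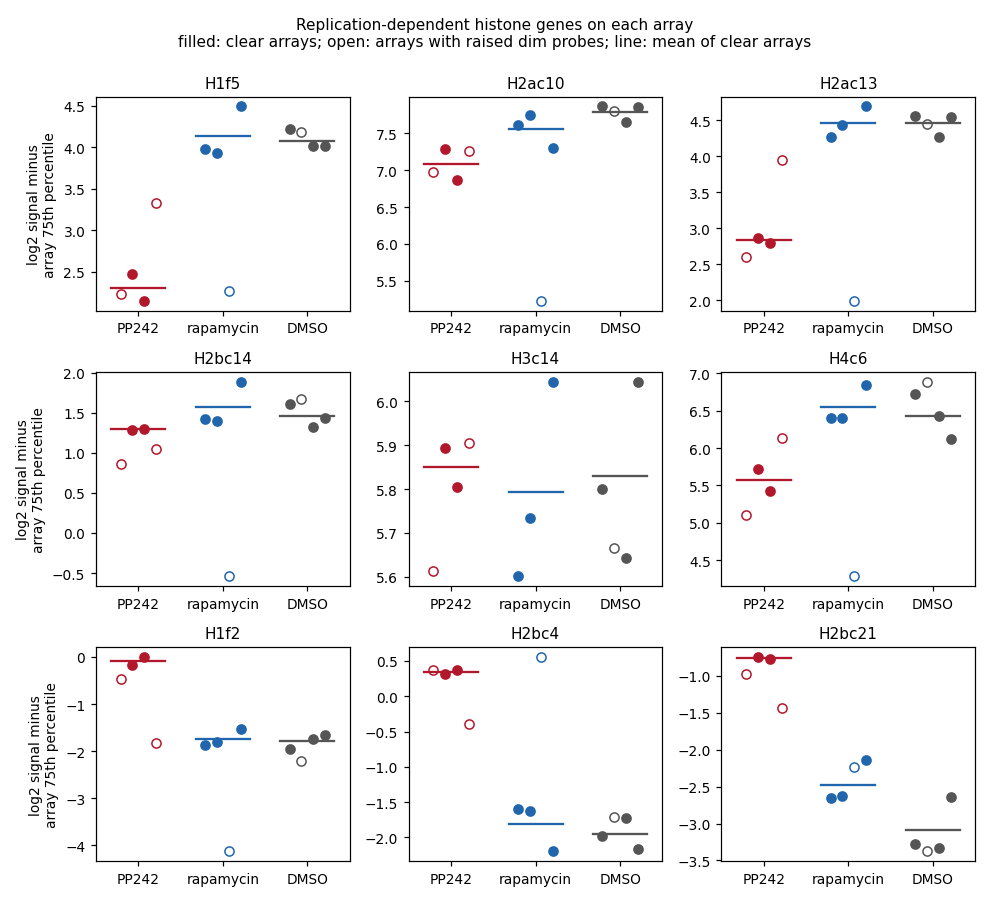
Log2 signal minus the array's 75th percentile (vertical axis, a different range in each panel) on each array for 9 replication-dependent genes, by group; filled circles are clear arrays, open circles raised arrays, lines the means of the clear arrays. The filled PP242 circles lie below the other filled circles for H1f5, H2ac10, H2ac13 and H4c6. They lie above the other filled circles for H1f2, H2bc4 and H2bc21, and among them for H3c14. The open rapamycin circle stands away from its group in all but H2bc21 and H3c14, where it is within the group or left out.

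Among the 9 variant genes, 3 fell with PP242 and 0 rose (limma), beside 14.3% and 13.9% of all genes. An unadjusted p under 0.05 was reached by 4 of the 9, and by 7362 of all 18579 genes. The median log2 change of the 9 was -0.11. H2ax, whose product is phosphorylated at DNA breaks, had the largest fall. H2ax read 2.64, 3.01, 3.03 and 3.65 on PP242 arrays 1 to 4. Values with rapamycin were 4.16, 4.25, 1.60 and 4.73, and DMSO arrays read 4.71, 4.37, 4.59 and 4.70. All 4 PP242 arrays were below all 4 DMSO arrays, and rapamycin array 3 was below every PP242 array. H2ax was 3.13-fold lower, a change of -1.65 ± 0.18 (SE) with adjusted p = 0.00134. H2az1 encodes H2A.Z, a variant found at promoters. H2az1 read 5.42, 5.73, 5.49 and 5.72 on PP242 arrays 1 to 4. Rapamycin arrays 1 to 4 gave 6.75, 6.90, 4.42 and 6.89, and DMSO arrays read 7.14, 6.99, 7.13 and 7.17. Here too no PP242 array reached a DMSO array. H2az1 fell, with a change of -1.54 ± 0.11 (SE) with adjusted p = 0.000378, 2.9-fold. H2ax and H2az1 kept their calls whichever clear array was left out; on all 12 arrays their changes were -1.51 and -1.52, with adjusted p = 0.378 and 0.261.

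H2aj encodes H2A.J, described in human cells as rising in senescence. It read 6.88, 7.29, 7.03 and 7.24 with PP242, 7.70, 7.91, 5.22 and 7.58 with rapamycin and 7.98, 7.86, 7.70 and 7.92 with DMSO. The clear PP242 arrays lay below the clear rapamycin and DMSO arrays, with PP242 array 1 and rapamycin array 3 lower still. The change of -0.71 ± 0.15 (SE) with adjusted p = 0.0156 passed, a call that was lost without PP242 array 3 and with slide as a block. A second H2aj probe changed by -0.41 ± 0.35 (SE) with adjusted p = 0.426. The core H2A gene H2ac10 read much like the first probe, with 6.98, 7.29, 6.87 and 7.26 on the PP242 arrays. Whether the first probe also reads core H2A copies was not tested. Macroh2a1 and Macroh2a2 encode macroH2A forms, which carry a large extra domain and are known from silent chromatin. Macroh2a1 read 1.01, 1.19, 1.14 and 0.93 with PP242, 1.48, 0.79, 0.73 and 1.73 with rapamycin and 1.83, 1.55, 1.74 and 2.08 with DMSO. PP242 arrays lay below all DMSO arrays, but the change of -0.72 ± 0.27 (SE) with adjusted p = 0.0982 did not pass; a second probe fell, with a change of -0.52 ± 0.13 (SE) with adjusted p = 0.0288. Macroh2a2 read -2.29, -3.77, -3.96 and -1.04 with PP242, -3.68, -3.36, 0.35 and -3.46 with rapamycin and -4.07, -3.17, -4.14 and -3.48 with DMSO, with higher values on the raised arrays of each group than on its clear arrays, and changed by 0.04 ± 0.22 (SE) with adjusted p = 0.922.

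The genes of H3.3, the H3 variant placed outside replication, were near 0. H3f3a read 5.01, 5.11, 5.05 and 4.43 with PP242, 5.23, 5.34, 2.83 and 5.28 with rapamycin and 4.93, 4.66, 5.10 and 5.18 with DMSO. H3f3b read 6.15, 6.41, 6.25 and 6.15 with PP242, 6.08, 6.21, 3.91 and 6.52 with rapamycin and 6.22, 5.89, 6.20 and 6.40 with DMSO. PP242 and DMSO arrays overlapped for both, with changes of 0.01 ± 0.10 (SE) with adjusted p = 0.962 and 0.06 ± 0.15 (SE) with adjusted p = 0.823. Of the 4 further probes of H3f3a and H3f3b, none passed. The linker variant H1f0, known to rise in resting and differentiated cells, read 3.82, 4.21, 4.21 and 3.78 with PP242, 3.71, 4.0, 1.95 and 4.03 with rapamycin and 4.39, 4.10, 4.25 and 4.31 with DMSO, and its change of -0.11 ± 0.12 (SE) with adjusted p = 0.561 did not pass. Its other 2 probes had the opposite sign, with 0.25 ± 0.17 (SE) and adjusted p = 0.328 and with 0.29 ± 0.14 (SE) and adjusted p = 0.189. H1f10, another linker variant, read -3.18, -4.01, -4.02 and -2.09 with PP242, -4.05, -4.0, -0.86 and -3.43 with rapamycin and -4.18, -3.88, -4.29 and -3.37 with DMSO. Its groups overlapped, with a change of -0.07 ± 0.32 (SE) with adjusted p = 0.898.

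**Figure D4:**
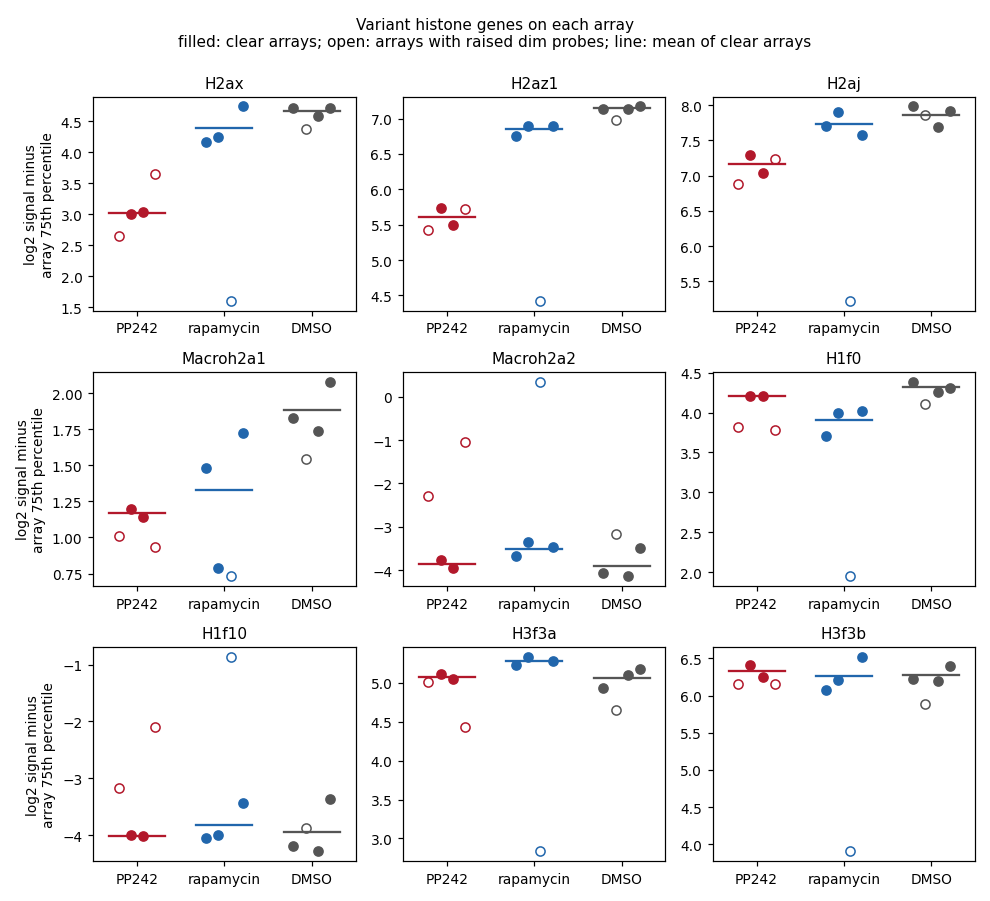
Log2 signal minus the array's 75th percentile (vertical axis, a different range in each panel) on each array for the 9 variant histone genes, by group; filled circles are clear arrays, open circles raised arrays, lines the means of the clear arrays. H2ax, H2az1, H2aj and Macroh2a1 show all PP242 circles below all DMSO circles, while PP242 and DMSO overlap for H3f3a and H3f3b. For H2az1 and H1f0 all rapamycin circles also lie below all DMSO circles.

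Of the 11 germline histone genes, 6 were tested on the clear arrays. H2ac1, the testis H2A gene, fell, with a change of -0.84 ± 0.16 (SE) with adjusted p = 0.0103, lost without PP242 array 3 and with slide as a block. Its neighbour H2bc1, the testis H2B gene, changed by -0.54 ± 0.18 (SE) with adjusted p = 0.0663. Both were well above background on all 12 arrays of these fibroblasts; whether their probes also read somatic copies was not tested. H1f6, H1f7, H1f8 and H2al1m did not pass, with changes of -0.0036, -1.45, 0.02 and 0.63. H2ab1, H2al1n, H2al1o, H2al2a and H2ap were well above background on at most 1 clear array and were not tested there. The pseudogene Macroh2a3 changed by -0.18 ± 0.25 (SE) with adjusted p = 0.635.

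With rapamycin, 0 of the 25 replication-dependent and 0 of the 9 variant genes passed against DMSO on the clear arrays (limma, adjusted over all genes), where 0.0592% of all genes fell and 0.124% rose. An unadjusted p under 0.05 was reached by 1 replication-dependent and 2 variant genes, and by 2544 of all 18579 genes. The medians were 0.10 for the replication-dependent and -0.14 for the variant genes, against -0.02 for all genes. The single replication-dependent gene was H2bc21, with 0.61 ± 0.23 (SE) with adjusted p = 0.317. The variants were H1f0, with -0.41 ± 0.11 (SE) with adjusted p = 0.207, and H2az1, with -0.30 ± 0.10 (SE) with adjusted p = 0.267. The other 2 probes of H1f0, well above background on all 12 arrays, changed by -0.01 ± 0.16 (SE) and 0.05 ± 0.13 (SE). Macroh2a1 changed by -0.55 ± 0.24 (SE) with adjusted p = 0.392 and H2ax by -0.28 ± 0.16 (SE) with adjusted p = 0.498. H1f5, H2ac13 and H4c6, which fell with PP242, had rapamycin changes of 0.05 ± 0.18 (SE), 0.01 ± 0.14 (SE) and 0.13 ± 0.20 (SE). With all 12 arrays the median of the replication-dependent genes was -0.45, against 0.15 for all genes. Again 0 of 26 were called (limma), where 0% of all genes fell and 0% rose. Of the 26, 1 had an unadjusted p under 0.05, as had 498 of all 23803 genes. Within slide 3 the median was 0.48 between the clear arrays and -0.69 with rapamycin array 3 included, where that of all genes was 0.02 and -0.35. Within slides 1 and 2 it was -0.09, where that of all genes was -0.04 and 0.19. The slide 2 value rests on DMSO array 2, which is not among the clear arrays. With array weights on all 12 arrays, H2bc21 passed as higher with rapamycin, and of the variants H3f3a as higher and H1f0, H2ax and Macroh2a1 as lower.

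The test of the difference between the inhibitors gave 14 replication-dependent genes lower and 3 higher with PP242 than with rapamycin, of 25, where 7.86% of all genes were lower and 7.58% higher. It shares the PP242 arrays with the comparison above. Those higher were again H2bc4, H1f2 and H2bc21, with differences of 2.16 ± 0.22 (SE), 1.65 ± 0.15 (SE) and 1.72 ± 0.25 (SE); with slide as a block H2bc21 did not pass here. The largest fall was that of H1f5, -1.82 ± 0.20 (SE) with adjusted p = 0.00302. H3c1 and H1f3 passed in this comparison, with -1.31 ± 0.32 (SE) with adjusted p = 0.0401 and -1.26 ± 0.32 (SE) with adjusted p = 0.0459. Both genes read highest on rapamycin array 4. H3c1 was -3.36 there and -4.36 and -4.48 on rapamycin arrays 1 and 2, and H1f3 was 0.78 there and -0.06 and -0.18. The brighter probe of H2ac10 did not pass (-0.48 ± 0.18 (SE) with adjusted p = 0.135). The second H2ac10 probe read 4.73 and 4.61 on the clear PP242 arrays, against 6.02, 6.09 and 6.33 on the clear rapamycin arrays. The dimmer probe of H1f3 was at least 4.83-fold higher with PP242 here, and that of H2aw, also among the 14, was higher by 1.70 ± 0.21 (SE). Of the variants, H2ax and H2az1 were lower with PP242, with differences of -1.36 ± 0.18 (SE) with adjusted p = 0.00491 and -1.24 ± 0.11 (SE) with adjusted p = 0.00136. On all 12 arrays the median was -0.37, against 0.23 for all genes. There 0 of the 26 replication-dependent genes passed (limma), and 0% of all genes were lower or higher. Of the 26, 4 had an unadjusted p under 0.05, as had 977 of all 23803 genes. The count of 14 was 5 without PP242 array 2, 4 without PP242 array 3, 7 without rapamycin array 1, 8 without rapamycin array 2, 9 without rapamycin array 4 and 7 without DMSO array 3, and 5 with slide as a block. The 2 variant genes became 1 without PP242 array 2 or PP242 array 3 and 3 without rapamycin array 4, and the 12-array count of 0 became 11 without rapamycin array 3. PP242 was given at 2 µM and rapamycin at 50 nM, and the differences are those at these doses.

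The arrays were spread over 3 slides. Within slide 1, the 1 slide with clear PP242 and DMSO arrays, 22 of 25 replication-dependent genes were lower with PP242, with a median of -0.75, against 0.01 for all genes. Against the same DMSO arrays 22 of 25 were also lower with rapamycin, with a median of -0.09, against -0.04 for all genes. With all arrays, the medians of PP242 against DMSO were -0.75 on slide 1, -0.75 on slide 2 and -0.91 on slide 3. Those of all genes were 0.01, 0.14 and 0.06. PP242 against rapamycin had medians of -0.71 on slide 1 and -0.97 on slide 2 among clear arrays, against 0.06 and -0.01 for all genes. No test was run within a slide.

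Genes that serve histone supply were read from lists of known factors. Of 19 genes listed for chaperones and deposition, with the centromeric H3 variant gene Cenpa among them, 12 fell with PP242 and 0 rose. Of all genes, 14.3% fell. The chaperone gene Asf1b changed by -2.44 (adjusted p = 0.000323), and Hat1, which acetylates new H4, by -1.41 (adjusted p = 0.000323). Chaf1a, the large subunit of the assembly factor CAF-1, changed by -1.49 (adjusted p = 0.000348). Cenpa changed by -2.23 (adjusted p = 0.000772), and its symbol kept it out of the variant genes above. Npm3 and Rbbp4, with the highest signals among those that did not pass, had -0.44 (adjusted p = 0.0917) and -0.19 (adjusted p = 0.315). Hira, Daxx and Atrx, which place H3.3, had -0.28, 0.06 and 0.07 and did not pass.

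Of 7 genes for transcription of histone genes, 4 fell and 1 rose, where 14.3% of all genes fell and 13.9% rose; the same shares stand behind the 2 lists that follow. Cyclin E1 (Ccne1), which with Cdk2 activates the histone gene coactivator Npat, changed by -1.82 (adjusted p = 0.000343), Cdk2 by -0.92 (adjusted p = 0.0048) and Casp8ap2, which joins histone gene transcription to mRNA processing, by -0.86 (adjusted p = 0.00479). The 1 that rose was Hinfp, a factor that binds H4 promoters, with 0.74 (adjusted p = 0.00338). Ccne2 had -1.23 (adjusted p = 0.0101). Npat itself and Pou2f1, the gene of Oct-1, did not pass, with -0.34 (adjusted p = 0.126) and 0.15 (adjusted p = 0.388). Of 10 tested genes for 3′ end processing 5 fell, among them Slbp, the stem-loop binding protein, with -0.87 (adjusted p = 0.00239). Cpsf2, Srrt and Ncbp1 had -0.77 (adjusted p = 0.0028), -0.66 (adjusted p = 0.0121) and -0.73 (adjusted p = 0.0177), and Lsm10 and Cpsf3 did not pass, with 0.15 (adjusted p = 0.279) and -0.09 (adjusted p = 0.743). Of 5 genes for histone mRNA decay 2 fell: Eri1, an exonuclease that binds the stem-loop, with -1.23 (adjusted p = 0.00183), and Lsm1 with -0.44 (adjusted p = 0.0448). Upf1 and Tut7 had -0.39 (adjusted p = 0.137) and 0.32 (adjusted p = 0.212). With rapamycin, 0 genes of these 4 lists passed on the clear arrays (limma). Cpsf2, Cstf2, Hat1, Asf1b and Nap1l1 had an unadjusted p under 0.05, as had 2544 of all 18579 genes. On all 12 arrays 0 genes of these lists passed in any comparison.

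Markers of S phase also fell with PP242. Tk1, Ccna2, Rrm2, Pcna and Mcm2 all fell with PP242 on the clear arrays, with changes of -2.30, -1.90, -1.78, -1.29 and -1.21 on the log2 scale. Of all genes tested, 14.3% fell. With rapamycin the changes of these 5 genes were -0.26, -0.26, -0.43, -0.21 and -0.31, and none passed (limma). Tk1, Ccna2, Pcna and Mcm2 had an unadjusted p under 0.05, as had 2544 of all 18579 genes. On all 12 arrays none of the 5 passed with PP242, with adjusted p = 0.131 for Tk1 to 0.41 for Pcna. What part the share of cells in S phase had in the histone values was not tested.

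**Figure D5:**
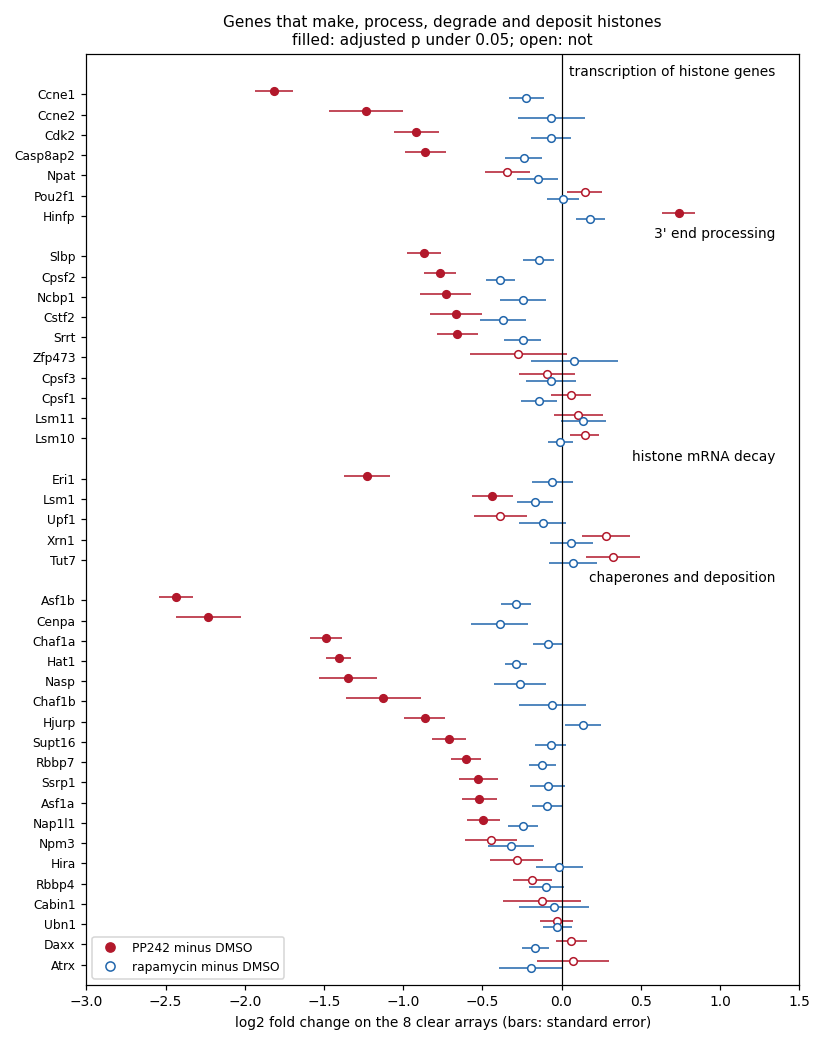
Log2 fold change against DMSO (horizontal axis) of the tested genes for histone transcription, 3′ end processing, mRNA decay and deposition on the 8 clear arrays, with the standard error as bars; red is PP242 and blue is rapamycin, filled where the adjusted p was under 0.05. Asf1b and Cenpa lie beyond -2 with PP242, Hinfp is the 1 filled point right of 0, and every rapamycin point is open.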

How the data were processed

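Total RNA of 12 NIH3T3 cultures was amplified with a whole transcriptome kit, labelled with Cy3 and hybridised to one-colour Agilent arrays, per the labels' protocols. The scanner files as deposited give the intensity of each spot on a linear scale; the processed signal was background-subtracted within each array by Agilent Feature Extraction, version 10.5.1.1 per the file headers and 10.1 per the submitters' processing notes. The deposited value table holds log2 values and served as an alternative. The dose of PP242 is 2 µM in the design text and characteristics and 2 mM in the treatment protocol; 2 µM is used here.

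Spots marked as outliers (1.52%) and control spots were left out; no spot was saturated. Probes were named through RefSeq accessions: of 41174 probes 24844 had 1 symbol, 0 several and 16330 none. Log2 processed signals minus the array's 75th percentile were compared in 1 fit of the 3 groups (limma 3.58.1, R 4.3.3; lmFit and eBayes, two-sided, Benjamini-Hochberg over all genes tested). Genes were represented by their brightest probe, which had to be well above background on 3 of the 8 clear arrays (75th percentile over 100 times the 25th) or 4 of all 12. The design without a replicate block was used. The fit was also run on simulated data with independent noise on the 8 clear arrays. That simulation had no slide effect and no raised arrays, so it does not bear on those limits. Members, gene lists and tests were chosen with earlier results of these data known. Values on all 12 arrays are given for the brightest replication-dependent gene of each family, for variants well above background on all arrays and for the 3 largest changes in each direction; of each list of other genes, up to 4 that passed and up to 2 that did not are named by adjusted p and signal, and the further names in those paragraphs (Ccne2, Hira, Daxx, Atrx, and the genes with an unadjusted p under 0.05) were added after their values were seen. Array number limits precision. Promoter sequences come from RefSeq (GRCm38.p6), whereas the array's annotation is of mm9, so no probe coordinates are given. Alternatives covered the arrays fitted, array weights, scaling, background correction, the deposited table, the filter, probe averaging, the groups fitted, slide, replicate number, variance trend and leaving out each array.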

Additional observations from a re-analysis of the deposited data

Results flagged for a closer look

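In 21 of the 117 sets of 4 arrays looked at (a histone gene in a group), 1 array stood away from the nearest of the other 3 by a share of the whole range above the limit of Dixon's test for 4 values. Chance gives about 1 in 20 for a single set of independent values, but these sets share the same arrays. Other genes were not looked at in this way, so the count does not set the histone genes apart. Rapamycin array 3 was the array in 16 of them. The share of the range is given in brackets. Rapamycin array 3 was below the other rapamycin arrays for H1f0 (0.847), H1f2 (0.865), H2ac1 (0.925), H2ac13 (0.846), H2ac15 (0.879), H2ac20 (0.933), H2aj (0.876), H2aw (0.867), H2az1 (0.938), H3c4 (0.869), H3f3a (0.959), H3f3b (0.830) and H4c4 (0.853). It was above them for H1f1 (0.902), H1f8 (0.955) and Macroh2a2 (0.921). On H2az1 it read 4.42, against 6.75 to 6.90 on the other 3. This array also had the smallest ratio of 75th to 25th percentile, 7.15, and was not among the clear arrays. PP242 array 4, also not among them, was above the other PP242 arrays for H2ac15 (0.861) and below them for H2bc4 (0.923) and H3f3a (0.853). Among clear arrays, rapamycin array 4 was above the other rapamycin arrays for H3c1 (0.889), reading -3.36, and DMSO array 4 was above the other DMSO arrays for H2bc21 (0.861), reading -2.64. Without DMSO array 4 the rise of H2bc21 with PP242 was 2.55 and passed.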

How the results depend on the processing

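Under quantile normalisation and with the deposited table H4c6 and H4f16 lost their call against DMSO, and H4f16 also with the median spot signal. PP242 against DMSO, on the clear arrays, had 13 replication-dependent genes lower; this was 0 on all 12 arrays, 7 with no filter, 5 with slide as a block and 6 with the replicate block (the same 5 and H2ac10), and ranged from 5 to 16 when 1 array was left out. The 3 genes higher became 1, and the 3 variant genes called became 0, on all 12 arrays. PP242 against rapamycin had 14 lower: 0 on all 12 arrays, 7 with no filter, 8 with only the 2 groups compared, 5 with slide as a block, 5 with the replicate block, and 4 to 12 with 1 array left out. Its 3 higher became 0 and its median -0.37 on all 12 arrays; its 2 variant genes were 0 on all 12, 5 with array weights and 1 to 3 with 1 array left out. Rapamycin against DMSO had a median of -0.45 on all 12 arrays, and array weights on all 12 called 1 replication-dependent gene higher and 4 variant genes. On all 12 arrays, PP242 against DMSO called 1 replication-dependent gene; this was 19 with array weights, 11 with only those 2 groups, 2 with probes well above background on every array, and 0 with median centring, quantile normalisation, normexp, the deposited table, no filter, slide as a block or the replicate block, ranging from 0 to 17 with 1 array left out, the highest without rapamycin replicate 3. Array weights gave 1 for rapamycin against DMSO and 19 for PP242 against rapamycin in place of 0, and leaving out 1 array gave 0 to 11 for PP242 against rapamycin. The weight of rapamycin array 3 was 0.0205 and that of PP242 array 4 was 0.106. H2aw changed sign with the mean of its probes, to 0.27 against DMSO and 0.24 against rapamycin. Over all members and settings, PP242 against DMSO stayed on its side of the threshold in 780 values, lost the call in 86 and gained one in 29. In 1 value the sign reversed where a call was made. Where neither fit made a call, sign was not compared, and such values are among the 780. For the losses and gains the cause was not tested. Correlations of deviations between same-numbered clear arrays of different groups ran from -0.31 to 0.71 over 4 pairs, with a median of 0.37. Between clear arrays of unlike number they ran from -0.59 to 0.47 over 17 pairs, with a median of -0.04. On all 12 arrays the medians were -0.49 over 12 same-numbered and 0.29 over 36 other pairs. The deviations of the 2 clear PP242 arrays mirror each other by construction, so these correlations cannot settle whether the numbers pair the arrays. The main fit did not pair them. Signal over background limits the germline genes that were not tested and H1f3's dim probe.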
